A study of Mus musculus with 2 samples.

Results

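The replication-dependent histone genes supply the H1, H2A, H2B, H3 and H4 proteins that package newly copied DNA, and they were described here in αLPs, lymphoid progenitors that carry the integrin α4β7, from mouse fetal liver and adult bone marrow. With earlier results of these data known, the members were chosen by name, as every gene whose symbol begins with Hist1h, Hist2h, Hist3h or Hist4. There were 69 such rows with 68 symbols among the 27998 genes of both matrices, since Hist2h2bb stands under a pair of identifiers. By class they comprised 6 H1, 19 H2A, 19 H2B, 12 H3 and 13 H4 genes, and by gene cluster 55 Hist1, 11 Hist2, 2 Hist3 genes and 1 Hist4 gene. The study profiled αLPs by droplet single-cell RNA sequencing of 3' ends, with 1 library from fetal liver and 1 from bone marrow. Both came from wild-type B6 mice with no treatment, and live cells were sorted as Lin-, CD45+, CD127+, Flt3-, α4β7+ and CD25-. Fetal livers were taken at E14.5, a stage of mid-gestation, per the series' design text. The labels give an age of 6 to 8 weeks for both samples, the fetal one included, and do not say how many animals were pooled.

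Histone mRNAs of this kind are made in bulk while DNA is copied and are destroyed when copying ends. Most lack a poly(A) tail and end in a short stem-loop that is bound by SLBP, the stem-loop binding protein. The library protocol primes on poly(A), so the values below count only those histone transcripts that were captured by such priming, and they do not measure the total histone mRNA of a cell. Proliferating progenitors need much histone, which ties these genes to DNA replication in lymphoid tissue as in others.

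After removal of barcodes with under 500 genes or over 10% mitochondrial UMIs (distinct tagged RNA molecules), 8583 fetal liver and 7258 bone marrow cells remained, with 91285900 and 29941097 UMIs. The median cell had 9294 UMIs in fetal liver against 3447.5 in bone marrow, a gap of 2.70-fold, and 3 counts, the limit for a gene with none, correspond to 0.0329 and 0.100 CPM, which are UMIs per 1000000 UMIs of the library. The libraries shared 19 cell barcodes. The sorted markers were detected in both libraries, Il7r (CD127) at 178 and 417 CPM and Itgb7 at 47.9 and 61.8 CPM in fetal liver and bone marrow, while Flt3, sorted against, stood at 1.45 and 1.20 CPM. Il2ra (CD25), also sorted against, stood at 1.08 CPM in fetal liver and was higher in bone marrow, at 7.78 CPM. Erythroid markers summed to 188 and 21.2 CPM, B lineage markers to 89.6 and 31.4 CPM, myeloid markers to 117 and 14.8 CPM and mast cell markers to 189 and 207 CPM. Xist had 23018 UMIs in fetal liver against 2 in bone marrow, and the labels give no sex. With 1 library per tissue no test was possible, and every interval is a 95% interval that covers counting error only. The spread between animals and the spread between cells are both left out, so the intervals are narrower than either would allow.

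The stem-loop was looked for in the annotated transcripts of the same genome build (GENCODE M21, GRCm38), as 6 paired bases around a loop of 4 after the stop codon. Of 69 members, 67 were found in that annotation by identifier and 65 had a coding transcript. A perfect stem-loop followed the stop codon in 44 members, which were 44 of the 48 whose annotation went on for at least 50 bases. In 13 members the annotation ended at the stop codon, so nothing could be searched. The examples below are the members that carry the results that follow, written as DNA of the coding strand with the stem-loop in capitals.
Hist1h2ae: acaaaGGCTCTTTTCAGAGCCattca
Hist1h3c: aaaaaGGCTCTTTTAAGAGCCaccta
Hist1h4i: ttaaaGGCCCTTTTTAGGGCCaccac
Hist1h4h: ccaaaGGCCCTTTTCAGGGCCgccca
Hist1h1c: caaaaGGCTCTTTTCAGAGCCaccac
Hist3h2a: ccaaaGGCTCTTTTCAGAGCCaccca

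The stem-loop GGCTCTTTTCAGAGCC, as in Hist1h2ae and Hist1h1c, was the commonest of 8 forms, with 24 members of the H1, H2A, H2B and H3 classes. The form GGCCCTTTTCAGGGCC was found in 7 members, all of them H4 genes. Hist1h1c and Hist3h2a thus carry the same hairpin as Hist1h2ae, although in fetal liver their levels went with the S phase genes in the opposite way to Hist1h2ae, as shown further on. Beyond the hairpin the annotated transcripts differed: the median member had 94 bases after the stop codon, 24 had at least 200 and 21 contained AATAAA or ATTAAA, the hexamers that direct polyadenylation.

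Many members cannot be fully told apart by sequence. All 13 H4 reading frames encode 1 protein and the 12 H3 reading frames encode 2. At least 50% of all 60-base words were shared with another gene in 32 of the 67 members, which reached 92.9% in Hist1h2ap, 85.2% in Hist1h4n, 79.3% in Hist2h3b and 55.9% in Hist1h2bj. For these the split of UMIs between copies is uncertain, whereas no 60-base word of Hist1h1b and 7.59% of those of Hist1h1c were shared. On the same strand, Hist1h1e overlaps Hist1h2be, both overlap Gm11398, and the Hist2h2bb identifiers overlap each other. Hist2h2aa1 and Hist2h3c1 overlap Gm20634, Hist3h2a overlaps Trim17 and Hist1h2ac overlaps Gm24991.

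Over whole libraries, histone transcripts made up a small share of the counted UMIs, somewhat larger in fetal liver. They summed to 249272 UMIs or 2731 CPM (0.273% of all UMIs) in fetal liver, and to 67019 UMIs or 2238 CPM (0.224%) in bone marrow, a log2 ratio, fetal liver over bone marrow, of 0.29 with an interval of 0.27 to 0.30. The S phase list, 38 replication genes without any histone gene, differed more, at 2685 and 1441 CPM or a log2 ratio of 0.90, and the G2 and M phase list of 53 genes had a ratio of 1.16. The histone ratio was 0.17 without Hist1h2ae and 0.64 without the 6% of cells with most UMIs in each library. Cells past a cut of 0.5% for markers of other lineages numbered 72 and 10, and without them the ratio was 0.28. Cells below that cut stayed in with any such UMIs they held, so other lineages were not fully removed. Doublets were not removed, and their part in these values was not tested.

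By class, H2A transcripts were the most counted, at 1274 CPM in fetal liver against 1026 CPM in bone marrow, which is a log2 ratio of 0.31 (0.30 to 0.33). H1, the linker histone between nucleosomes, stood at 449 and 321 CPM, the largest ratio of the 5 classes at 0.48 (0.45 to 0.52). H2B stood at 476 and 391 CPM (0.28), H3 at 238 and 215 CPM (0.15) and H4 at 294 and 285 CPM (0.042). For 3 classes the sign rested on 1 gene. Without its most counted member the ratio was -0.040 for H1, -0.039 for H2A and -0.55 for H4, while it stayed positive for H2B (0.36) and H3 (0.14).

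Of the 69 members, 42 reached 10 CPM in the higher library. Of these, 3 were higher by 2-fold or more in fetal liver, where 7.25% of all 6938 genes measured were, and 5 passed 2-fold towards bone marrow, as did 10.9% of all genes, so with all UMIs summed both shares lay near the background. In direction the members split evenly, 21 higher in each library, and their median log2 ratio of 0.06 lay near the 0.01 of all genes. A median-ratio size factor raises all ratios by 0.16, and then 5 and 3 members passed 2-fold (10.7% and 8.06% of all genes) and Hist1h2ap, Hist1h3f, Hist1h1d and Hist1h3b turned to fetal liver. The interval spanned 0 for 4 members. The reading against the background depended on the weight of deep cells. With each cell weighing the same, 12 of 40 measured members passed 2-fold towards fetal liver (8.93% of all genes) and 4 towards bone marrow (11.5%). Without the 6% of cells with most UMIs, 11 of 39 passed towards fetal liver (8.61%) and 2 towards bone marrow (12%), so in both settings the share towards fetal liver lay above the background.

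**Figure D1:**
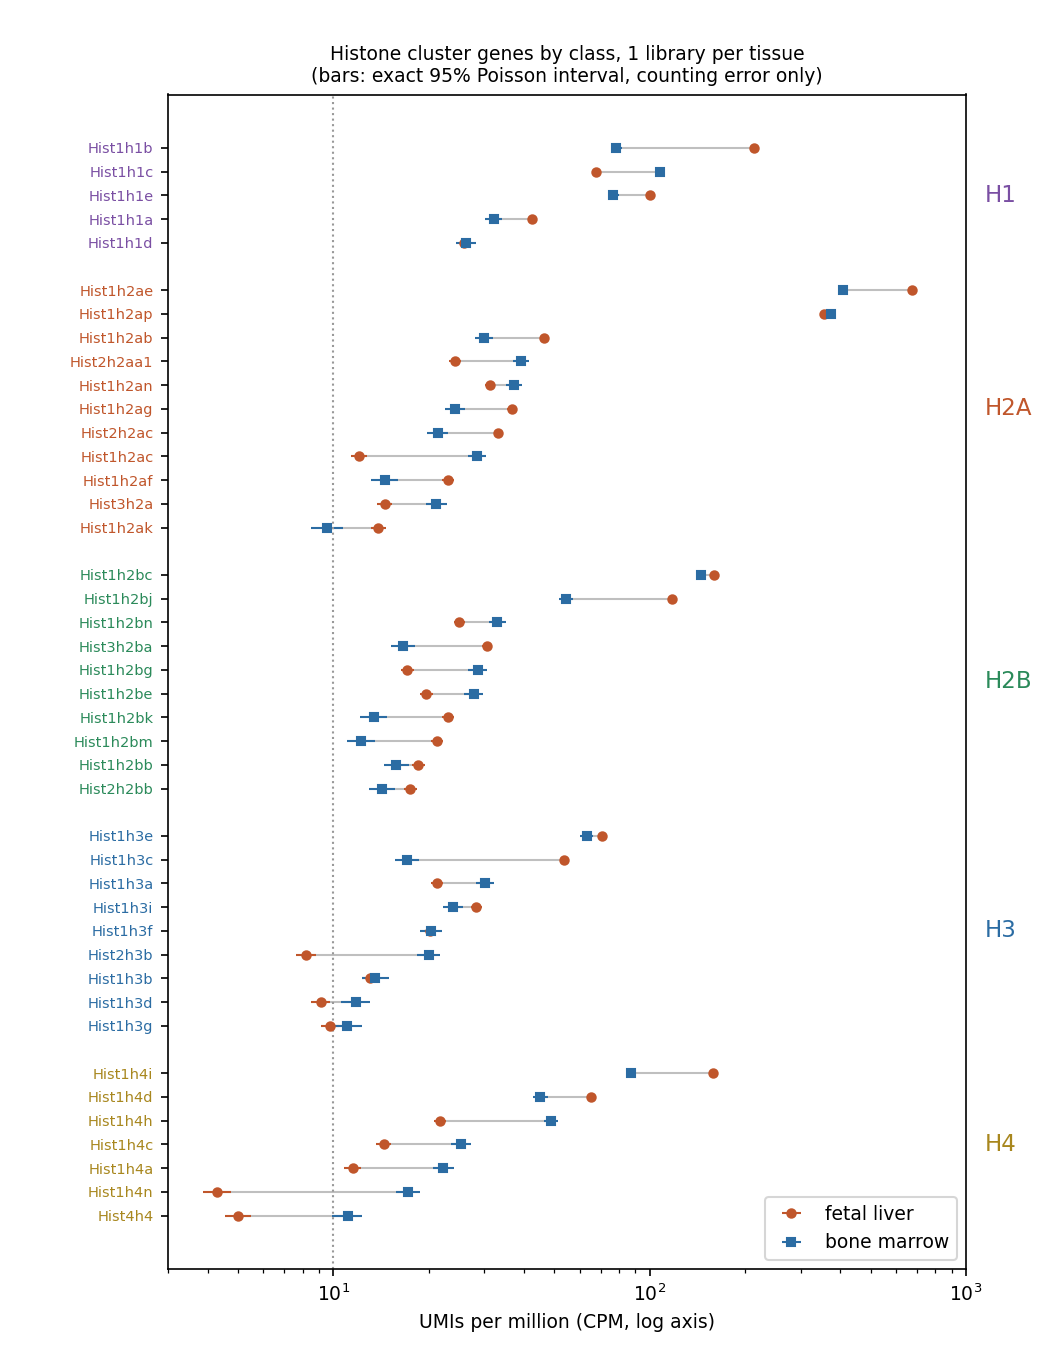
Level of the 42 members that reached 10 CPM (dotted line) in either library, in CPM on a log axis, by histone class. Circles are fetal liver and squares bone marrow, 1 library each, with exact Poisson intervals; Hist1h2ae and Hist1h2ap stand apart from all other members, and the H4 genes Hist1h4n and Hist4h4 are the lowest in fetal liver.

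Hist1h3c, an H3 gene (chromosome 13, 23744973 to 23745602), was the member most in favour of fetal liver. It had 4887 UMIs or 53.5 CPM in fetal liver against 513 UMIs or 17.1 CPM in bone marrow, which is a log2 ratio of 1.64 (1.51 to 1.78). Hist1h1b, the linker histone H1.5 (chromosome 13, 21779883 to 21780625), had 19449 UMIs or 213 CPM and 2347 UMIs or 78.4 CPM, a ratio of 1.44 (1.38 to 1.5). Hist1h2bj, an H2B gene (chromosome 13, 22043214 to 22043676), had 10762 UMIs or 118 CPM and 1626 UMIs or 54.3 CPM, a ratio of 1.12 (1.04 to 1.19). These 3 genes come from 3 classes, and each class also held members that were higher in bone marrow.

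At the other end stood genes of lower level. Hist1h4n, an H4 gene (chromosome 13, 21831767 to 21832196), had 392 UMIs or 4.29 CPM in fetal liver against 515 UMIs or 17.2 CPM in bone marrow, which is a log2 ratio of -2.0 (-2.2 to -1.81). Hist2h3b, an H3 gene on chromosome 3 (96268654 to 96269141), had 749 UMIs or 8.20 CPM and 599 UMIs or 20.01 CPM, a ratio of -1.29 (-1.44 to -1.13). Hist1h2ac, an H2A gene (chromosome 13, 23681467 to 23683948), had 1100 UMIs or 12.1 CPM and 852 UMIs or 28.5 CPM, a ratio of -1.24 (-1.37 to -1.11). The H4 genes Hist1h4h (21.8 and 48.7 CPM) and Hist4h4 (5.0 and 11.1 CPM) also passed 2-fold, with ratios of -1.16 and -1.15. None of these 5 reached 50 CPM in either library.

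A few genes supplied most of the counted transcripts of their class, and the leading gene often differed in weight between the libraries. The H2A genes Hist1h2ae (674 CPM in fetal liver against 408 CPM in bone marrow) and Hist1h2ap (355 and 373 CPM) together held 37.7% and 34.9% of all histone UMIs. Hist1h2ae alone gave 52.9% of the H2A UMIs of fetal liver and 39.8% of those of bone marrow. Among H4 genes, which encode the same protein, Hist1h4i gave 54.0% in fetal liver against 30.6% in bone marrow, and Hist1h4h 7.43% and 17.1%. Among H1 genes Hist1h1b gave 47.4% and 24.4%, and Hist1h1c, the linker histone H1.2, 15% and 33.5%. Hist1h3c gave 22.5% and 7.98% of the H3 UMIs, whereas Hist1h3e gave 29.7% and 29.4%.

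**Figure D2:**
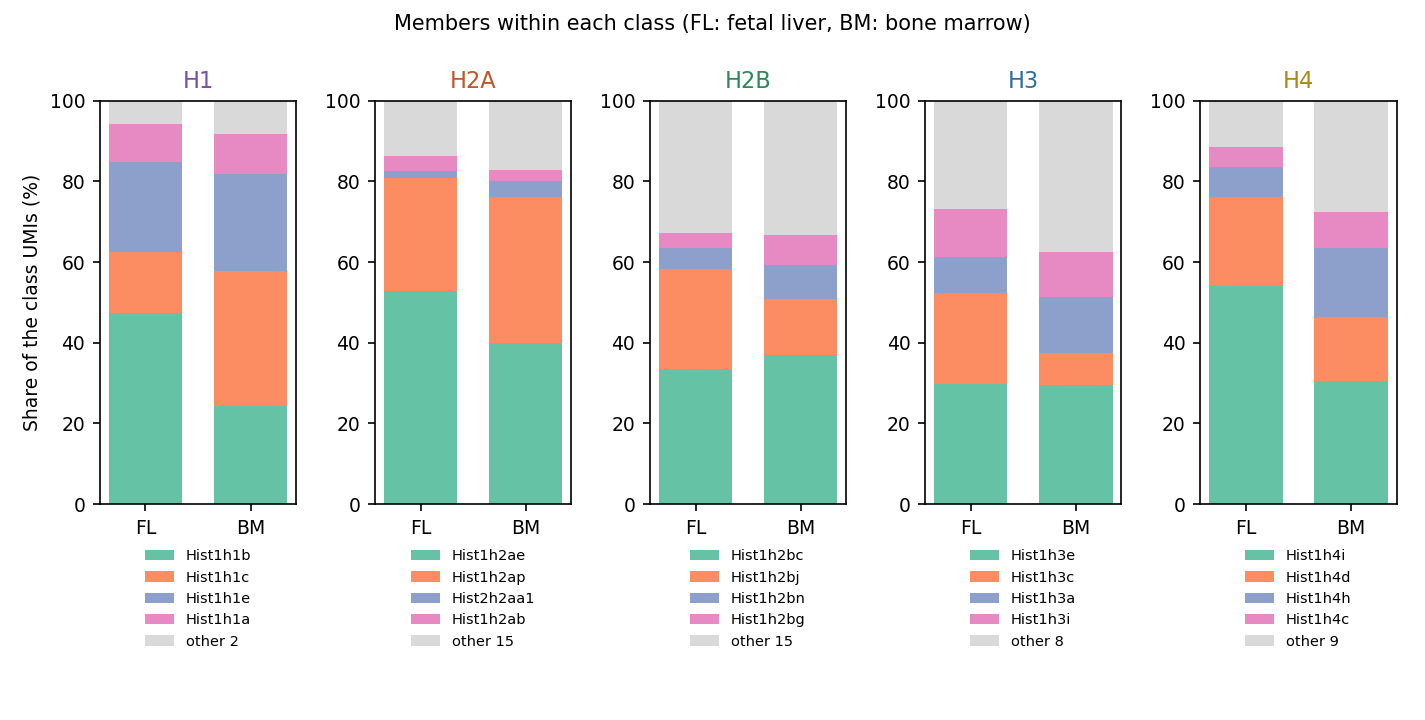
Share of each class's UMIs (percent, from 0 to 100) taken by its 4 leading members and by all others, in fetal liver (FL) and bone marrow (BM), 1 library each. Hist1h4i fills 54.0% of the H4 bar in fetal liver against 30.6% in bone marrow, and Hist1h1b 47.4% and 24.4% of the H1 bars.

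The other 34 measured members differed by less than 2-fold. Of them 18 were higher in fetal liver. Pairs of values here are CPM in fetal liver, then in bone marrow. Of the H1 genes, Hist1h1e (100.1 and 76.8) and Hist1h1a (42.6 and 32.1) were higher in fetal liver, Hist1h1c (67.6 and 108) was higher in bone marrow, and Hist1h1d (25.9 and 26.3) had an interval across 0. Of the H2A genes, Hist1h2ae, Hist1h2ab (46.4 and 29.9), Hist1h2ag (36.7 and 24.2), Hist2h2ac (33.3 and 21.3), Hist1h2af (23.1 and 14.53) and Hist1h2ak (13.9 and 9.55) were higher in fetal liver. The H2A genes Hist1h2ap, Hist1h2an (31.2 and 37.3), Hist2h2aa1 (24.2 and 39.1) and Hist3h2a (14.53 and 21.2) were higher in bone marrow. No H2A gene but Hist1h2ae and Hist1h2ap thus reached 50 CPM.

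Of the H2B genes, Hist1h2bc (159 and 145), Hist3h2ba (30.7 and 16.6), Hist1h2bk (23.1 and 13.4), Hist1h2bm (21.3 and 12.2), Hist1h2bb (18.5 and 15.8) and Hist2h2bb under the identifier ENSMUSG00000105827 (17.5 and 14.3) were higher in fetal liver. Hist1h2bn (25.0 and 33.0), Hist1h2be (19.7 and 27.8) and Hist1h2bg (17.1 and 28.6) were higher in bone marrow. Of the H3 genes, Hist1h3e (70.7 and 63.2) and Hist1h3i (28.3 and 23.8) were higher in fetal liver, and Hist1h3a (21.2 and 30.1) and Hist1h3d (9.11 and 11.8) in bone marrow. The intervals of Hist1h3f (20.2 and 20.3), Hist1h3b (13.01 and 13.6) and Hist1h3g (9.75 and 11.0) spanned 0. Of the H4 genes, Hist1h4i (158 and 87.3) and Hist1h4d (65.3 and 45.1) were higher in fetal liver, and Hist1h4c (14.4 and 25.3) and Hist1h4a (11.5 and 22.3) in bone marrow.

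The 27 members below 10 CPM had 4775 UMIs in all in fetal liver against 2432 in bone marrow, none above 6.96 and 8.78 CPM. In 5 of them neither library had more than 3 UMIs, and 2 had 0 in both, which allows up to 0.0329 and 0.100 CPM.

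To relate the genes to DNA replication, each cell with at least 2000 UMIs was thinned to 2000 at random, and its UMIs of the 38 S phase genes were counted. Cells with 10 or more were called S-high, cells with 3 or fewer S-low and the rest S-middle, so the states are ranges of a score and not cell types. The thinning left out 131 fetal liver and 1335 bone marrow cells. Of the rest, 1011 fetal liver cells (12.0%) and 239 bone marrow cells (4.04%) were S-high, and 3632 (43.0%) and 4825 (81.5%) were S-low. Next to the upper limit lay 408 fetal liver and 78 bone marrow cells with 9 UMIs.

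Histone transcripts were more frequent in S-high cells of both libraries, and more so in bone marrow. In fetal liver they stood at 1733 CPM in S-low, 3030 CPM in S-middle and 4230 CPM in S-high cells, a log2 ratio of S-high over S-low of 1.29 (1.27 to 1.30). In bone marrow they stood at 1363, 4126 and 7254 CPM, a ratio of 2.41 (2.38 to 2.44). In thinned cells the mean was 2.82 ± 4.02 histone UMIs (SD over 3632 cells) in S-low and 8.41 ± 7.63 (1011 cells) in S-high cells of fetal liver, and 2.34 ± 3.41 (4825 cells) and 14.6 ± 14.7 (239 cells) in bone marrow. Single cells of 1 state varied widely, with an SD near or above the mean, a spread that the intervals leave out. Across cells, Spearman's rho between histone and S phase UMIs was 0.30 in fetal liver (8452 cells) and 0.19 in bone marrow (5923 cells), both lists being read from the same cells of 1 library.

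**Figure D3:**
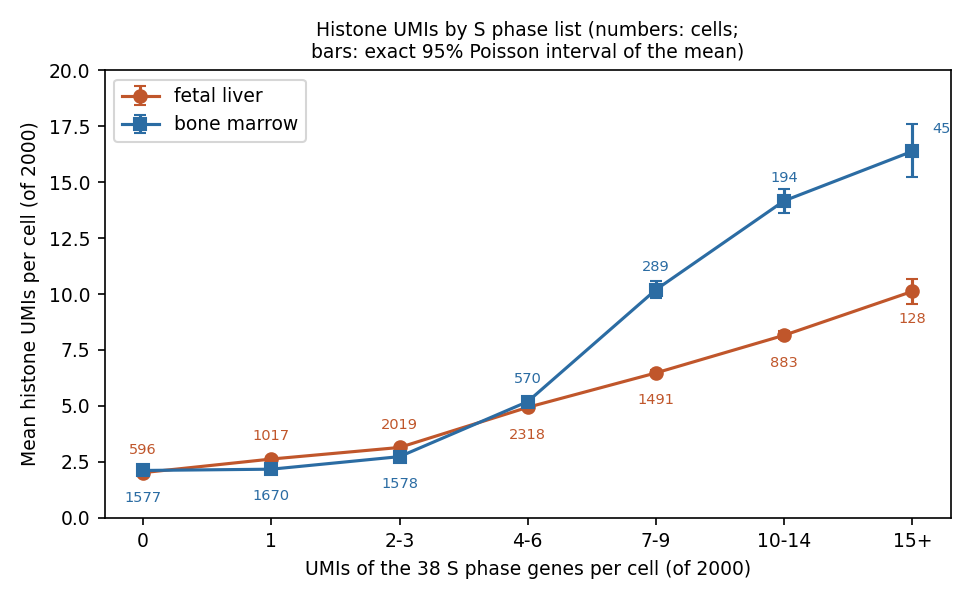
Mean histone UMIs per cell (vertical axis) by UMIs of the 38 S phase genes (horizontal axis), both in cells thinned to 2000 UMIs. Bars are exact Poisson intervals of the mean, which leave out the spread between cells, and numbers are cells. Fetal liver is the higher at 1 to 3 S phase UMIs. Bone marrow is slightly the higher at 0 and at 4 to 6, where the intervals overlap. From 7 bone marrow is clearly ahead, to reach 16.4 histone UMIs against 10.1 in fetal liver in the highest range.

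The S phase list did not order the cells alone. G2M-high cells were those with 20 or more UMIs of the 53 G2 and M phase genes. Among S-low cells, histone transcripts stood at 1141 CPM in the 3091 G2M-low and 3795 CPM in the 541 G2M-high cells of fetal liver, and at 1122 CPM in 4733 and 7678 CPM in 92 cells of bone marrow. The highest level was reached in cells high in both lists, at 6915 CPM in the 170 such cells of fetal liver and 15397 CPM in the 60 of bone marrow. Among 4 states (resting cells, defined next, S-low with G2M-high, S-high with G2M-low and cells high in both), 35 of the 42 measured members in fetal liver, or 38 in bone marrow, were highest in the last. In cells with 0 or 1 S phase and at most 4 G2 and M phase UMIs, called resting here, 809 CPM remained in 987 fetal liver cells and 984 CPM in 2819 bone marrow cells. Spearman's rho with the G2 and M list was 0.59 and 0.27.

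**Figure D4:**
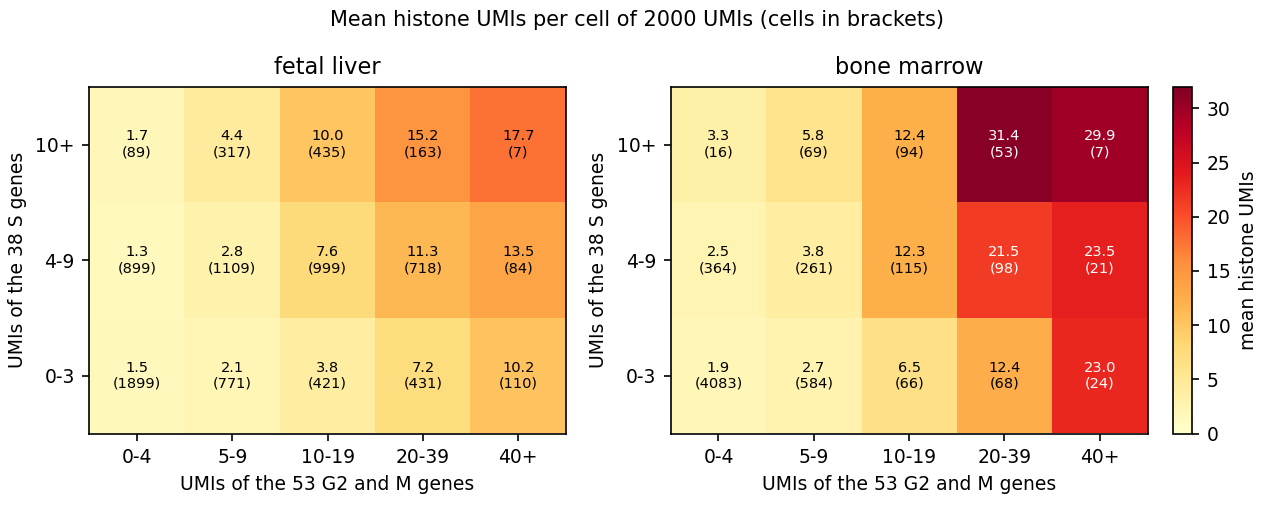
Mean histone UMIs per cell of 2000 UMIs (colour and number) by UMIs of the S phase genes (vertical axis) and of the G2 and M phase genes (horizontal axis), with cell numbers in brackets. The means grow towards the right except in the last field of the top bone marrow row, and each of the 15 fields is higher in bone marrow than in fetal liver.

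Within S-high cells the order of the tissues was turned. Histone transcripts were 1.71-fold higher in bone marrow there, a log2 ratio, fetal over adult, of -0.78 (-0.81 to -0.75). Of 56 members that reached 10 CPM in either group, 51 were higher in bone marrow, 36 at least 2-fold where 7.79% of all genes were, and 0 passed 2-fold towards fetal liver, where 5.62% of all genes were. H2A, H2B, H3 and H4 transcripts were 1.84, 1.91, 1.89 and 1.84 times as frequent in bone marrow and H1 transcripts 1.04 times. The S-high cells of bone marrow also held more G2 and M phase UMIs, a mean of 14.96 against 12.7 of 2000, and fewer UMIs per cell, a median of 7234 against 11760. With G2M-low cells alone the ratio was -0.43, and with cells of 2000 to 6000 UMIs -0.59.

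Thinned cells were also split into 15 fields by both scores, and their mean histone UMIs were compared. The mean was higher in bone marrow in 15 of 15, between 1.24 and 2.26 times that of fetal liver. This held in all 13 fields with at least 20 cells in each library. These means weigh each cell the same, unlike the summed CPM used for the ratios above. Over whole S states, which pool cells of all G2 and M ranges, the sign was not the same in all states. S-middle cells were higher in bone marrow (4126 against 3030 CPM), but S-low cells in fetal liver (1733 against 1363 CPM). With each thinned cell weighing the same, S-low cells were likewise higher in fetal liver, at a mean of 2.82 against 2.34 histone UMIs. The fetal liver library as a whole was higher in histone transcripts by CPM and held the larger share of S-high cells. What sets the level per cycling cell was not tested.

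Among S-low cells the sign depended on which cells were taken. The log2 ratio was 0.35 (0.33 to 0.37) in favour of fetal liver, but 0.024 in G2M-low cells, -0.28 in resting cells and -0.31 in cells of 2000 to 6000 UMIs. G2M-high cells made up 541 of 3632 S-low cells in fetal liver against 92 of 4825 in bone marrow. Of 36 members measured, 10 passed 2-fold towards fetal liver (7.93% of all genes) and 6 towards bone marrow (10.1%). The fetal liver share lay above the background and the bone marrow share nearer to it.

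Single members spread widely in S-low cells. Hist1h3c had 931 UMIs or 28.6 CPM in fetal liver against 104 UMIs or 5.25 CPM in bone marrow (2.45, 2.15 to 2.75), Hist1h2bk 507 UMIs or 15.6 CPM and 69 UMIs or 3.48 CPM (2.16, 1.80 to 2.55), and Hist1h2bj 2258 UMIs or 69.5 CPM and 403 UMIs or 20.3 CPM (1.77, 1.62 to 1.93). At the lower end, Hist1h4n had 80 UMIs or 2.46 CPM and 211 UMIs or 10.6 CPM (-2.11, -2.50 to -1.74), Hist2h3b 162 UMIs or 4.98 CPM and 279 UMIs or 14.1 CPM (-1.50, -1.79 to -1.21), and Hist1h2ac 228 UMIs or 7.01 CPM and 370 UMIs or 18.7 CPM (-1.41, -1.66 to -1.17). These are the genes at either end of the whole libraries, with Hist1h2bk in place of Hist1h1b.

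In S-high cells the same 3 genes lay lowest among the 42. Hist1h4n had 92 UMIs or 7.39 CPM in fetal liver against 102 UMIs or 55.4 CPM in bone marrow (-2.91, -3.33 to -2.49), Hist1h2ac 215 UMIs or 17.3 CPM and 146 UMIs or 79.3 CPM (-2.2, -2.51 to -1.89), and Hist2h3b 150 UMIs or 12.0 CPM and 95 UMIs or 51.6 CPM (-2.10, -2.48 to -1.71). At the upper end, Hist1h1e had 1745 UMIs or 140 CPM and 217 UMIs or 118 CPM (0.25, 0.04 to 0.46), Hist3h2ba 298 UMIs or 23.9 CPM and 39 UMIs or 21.2 CPM (0.18, -0.31 to 0.70), and Hist1h1b 5247 UMIs or 421 CPM and 693 UMIs or 376 CPM (0.16, 0.05 to 0.28). Of the members below 10 CPM in whole libraries, named here for their values, Hist1h4m (34 and 43 UMIs, -3.10) lay below Hist1h4n. Between Hist1h4n and Hist1h2ac lay Hist1h2ad (26 and 27 UMIs, -2.81), Hist2h2ab (24 and 22 UMIs, -2.63) and Hist1h4f (43 and 32 UMIs, -2.33). Hist1h4k (31 and 20 UMIs, -2.13) lay between Hist1h2ac and Hist2h3b. Hist1h1b differed 2.72-fold over whole libraries and by 0.16 on the log2 scale within S-high cells.

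The members differed in how far they went with the S phase list. In fetal liver 29 of 41 measured members were higher in S-high than in S-low cells by 2-fold or more, against 3.41% of all genes, and in bone marrow 50 of 56, against 10.5%. Of 41 members measured in both, 29 passed 2-fold in both libraries, 6 in bone marrow alone and 6 in neither. The ratio was larger in bone marrow in 40 of 41, Hist1h1e being the exception at 0.92 and 0.72. The median was 1.37 in fetal liver against 2.42 in bone marrow, while the median of all genes was -0.04 and -0.06. The summed ratios of the libraries lay closer in cells of 2000 to 6000 UMIs, at 2.49 in fetal liver against 2.77 in bone marrow, so the gap between the libraries moved with depth. Its cause was not tested.

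In fetal liver the largest ratios belonged to linker histones. Hist1h1a had 488 UMIs or 15 CPM in S-low and 1126 UMIs or 90.4 CPM in S-high cells, a log2 ratio of 2.59 (2.44 to 2.75), and in bone marrow 239 UMIs or 12.1 CPM and 255 UMIs or 138 CPM (3.52, 3.26 to 3.78). Hist1h1b had 2562 UMIs or 78.8 CPM and 5247 UMIs or 421 CPM in fetal liver (2.42, 2.35 to 2.49) and 583 UMIs or 29.4 CPM and 693 UMIs or 376 CPM in bone marrow (3.68, 3.52 to 3.84). Next came the H2A gene Hist2h2ac, with 495 UMIs or 15.2 CPM and 743 UMIs or 59.6 CPM in fetal liver (1.97, 1.80 to 2.14) and 279 UMIs or 14.1 CPM and 104 UMIs or 56.5 CPM in bone marrow (2.00, 1.67 to 2.33). All 3 genes were thus at least 2-fold higher in S-high cells of both libraries.

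In bone marrow other genes led among the 42. The H3 gene Hist1h3b had 59 UMIs or 2.98 CPM in S-low and 123 UMIs or 66.8 CPM in S-high cells (4.49, 4.03 to 4.96), and in fetal liver 206 UMIs or 6.34 CPM and 280 UMIs or 22.5 CPM (1.83, 1.56 to 2.09). The H2A gene Hist1h2af had 77 UMIs or 3.88 CPM and 145 UMIs or 78.8 CPM in bone marrow (4.34, 3.93 to 4.76) and 360 UMIs or 11.1 CPM and 484 UMIs or 38.9 CPM in fetal liver (1.81, 1.61 to 2.01). The H2B gene Hist1h2bk had 69 UMIs or 3.48 CPM and 121 UMIs or 65.7 CPM in bone marrow (4.24, 3.80 to 4.69) and 507 UMIs or 15.6 CPM and 379 UMIs or 30.4 CPM in fetal liver (0.96, 0.77 to 1.16). All 3 genes stood lower in S-low cells of bone marrow than in those of fetal liver, and higher in S-high cells. In resting bone marrow cells Hist1h3b stood at 0.37 CPM, and at 156 CPM in cells high in both lists.

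**Figure D5:**
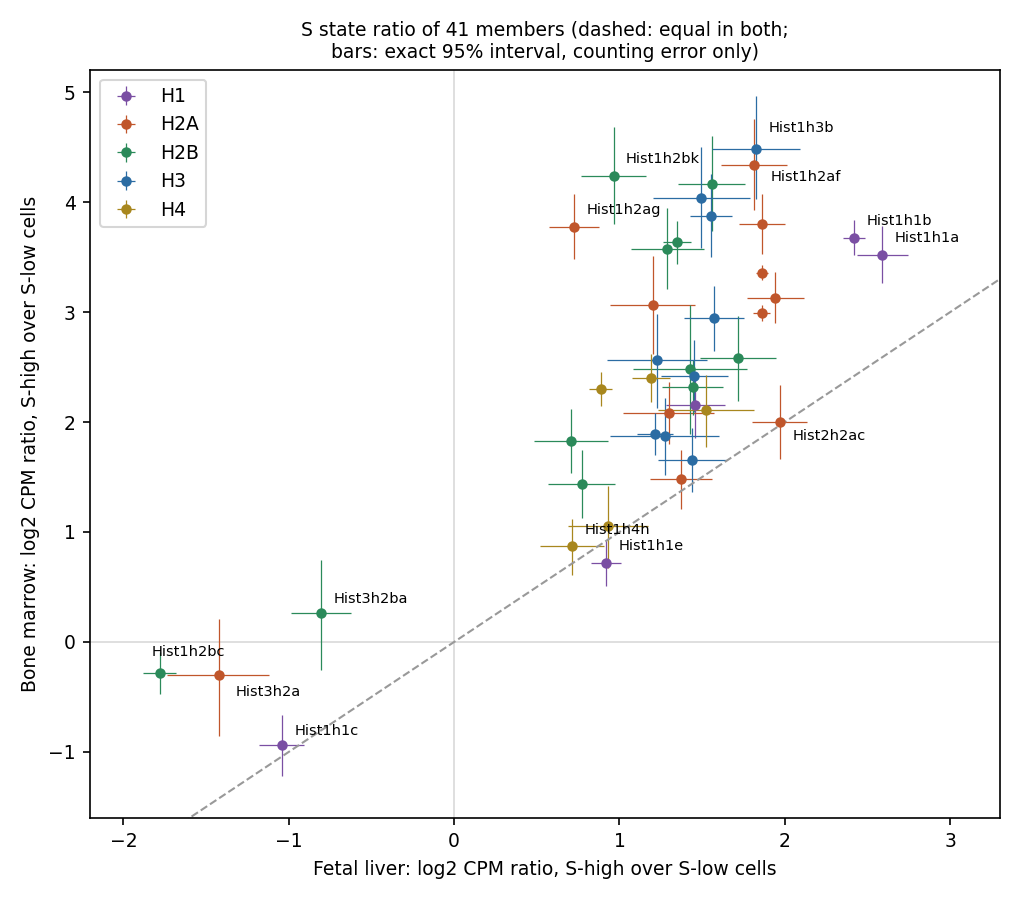
Log2 CPM ratio of S-high over S-low cells in fetal liver (horizontal) and bone marrow (vertical) for the 41 members measured in both, coloured by class, with exact intervals. Nearly all points lie above the dashed line of equal ratios, and Hist1h2bc, Hist3h2a, Hist1h1c and Hist3h2ba stand apart at the lower left.

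A set of 4 members went the other way in fetal liver. Hist1h2bc, the most counted H2B gene (chromosome 13, 23684199 to 23692908), had 7883 UMIs or 242 CPM in S-low and 879 UMIs or 70.6 CPM in S-high cells of fetal liver, a log2 ratio of -1.78 (-1.88 to -1.68). In bone marrow it had 3082 UMIs or 155 CPM and 236 UMIs or 128 CPM (-0.28, -0.48 to -0.09). Hist1h1c (chromosome 13, 23738808 to 23740367) had 2925 UMIs or 90.0 CPM and 544 UMIs or 43.7 CPM in fetal liver (-1.04, -1.18 to -0.91), and 2391 UMIs or 121 CPM and 116 UMIs or 63.0 CPM in bone marrow (-0.94, -1.22 to -0.67). By summed CPM both were lower in S-high cells of either tissue. After thinning, however, Hist1h2bc was found in 18.3% of S-low and 20.5% of S-high cells of bone marrow, so its direction there depended on the measure.

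The other two are neighbours on chromosome 11. The H2A gene Hist3h2a (58954685 to 58956830) had 699 UMIs or 21.5 CPM and 100 UMIs or 8.03 CPM in fetal liver (-1.42, -1.74 to -1.12), and 438 UMIs or 22.1 CPM and 33 UMIs or 17.9 CPM in bone marrow (-0.30, -0.86 to 0.21). The H2B gene Hist3h2ba (58948920 to 58949533) had 1357 UMIs or 41.7 CPM and 298 UMIs or 23.9 CPM in fetal liver (-0.80, -0.99 to -0.62), and 350 UMIs or 17.7 CPM and 39 UMIs or 21.2 CPM in bone marrow (0.26, -0.25 to 0.74). Only Hist1h1c was about as far down in both libraries.

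Resting cells also held these genes. In resting fetal liver cells Hist1h2bc stood at 193 CPM, more than Hist1h2ae at 89.4 CPM, whereas in cells high in both lists Hist1h2bc stood at 90.6 and Hist1h2ae at 1964 CPM. Hist3h2ba stood at 55.1 CPM in resting cells of fetal liver, the highest of its 4 states, and at 16.7 CPM in those of bone marrow. Hist1h1c stood at 119 CPM in resting cells and 53.6 CPM in S-high, G2M-low cells of bone marrow. H2B, whose most counted member is Hist1h2bc, had the smallest class ratio of S-high over S-low cells in fetal liver, 0.17 against 1.73 in bone marrow.

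The same 4 genes differed in how they went with the G2 and M list. Among S-low cells, 37 of 41 measured members of fetal liver were higher by 2-fold or more in G2M-high cells (4.28% of all genes) and 51 of 53 in bone marrow (8.68%). Of the 42 members of 10 CPM or more, the smallest ratios in fetal liver belonged to Hist3h2ba, with 1092 UMIs or 43.2 CPM in G2M-low and 265 UMIs or 36.5 CPM in G2M-high cells (-0.24, -0.44 to -0.05), Hist1h2bc, with 6129 and 1754 UMIs or 243 and 242 CPM (interval -0.08 to 0.07), and Hist1h1c, with 2223 and 702 UMIs or 88.0 and 96.8 CPM (0.14, 0.01 to 0.26). In bone marrow Hist3h2ba had 316 and 34 UMIs or 16.6 and 46.7 CPM (1.5, 0.94 to 2.01), Hist1h2bc 2669 and 413 UMIs or 139.8 and 567 CPM (2.02, 1.87 to 2.17), and Hist1h1c 2256 and 135 UMIs or 118 and 185 CPM (0.65, 0.39 to 0.90). The smallest there were Hist3h2a, with 420 and 18 UMIs (0.17, -0.60 to 0.85), Hist1h1c and Hist1h1e, with 1295 and 123 UMIs (1.32, 1.04 to 1.58), whose ratios in fetal liver were 0.58, 0.14 and 1.33.

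Of the 42 members, the largest ratios of G2M-high over G2M-low cells in fetal liver belonged to Hist1h2af, with 87 and 273 UMIs (3.45, 3.10 to 3.82), Hist2h3b, with 44 and 118 UMIs (3.22, 2.71 to 3.76), and Hist1h2an, with 139 and 332 UMIs (3.06, 2.77 to 3.35). In bone marrow the largest belonged to Hist1h3g, with 8 and 60 UMIs or 0.42 and 82.4 CPM (7.62, 6.55 to 8.90), Hist1h3c, with 16 and 88 UMIs or 0.84 and 121 CPM (7.17, 6.39 to 8.04), and Hist1h2af, with 14 and 63 UMIs or 0.73 and 86.5 CPM (6.88, 6.03 to 7.83). Hist1h3g and Hist1h3c had ratios of 2.74 and 2.77 in fetal liver, and Hist2h3b and Hist1h2an of 3.16 and 3.86 in bone marrow.

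The annotated 3' ends of the 4 genes had features in common. The coding transcripts of all 4 contained a polyadenylation hexamer after the stop codon and at least 200 bases there, 742 in Hist1h2bc, 880 in Hist1h1c, 1700 in Hist3h2a and 213 in Hist3h2ba. Hist1h2bc was the only member with a transcript spliced after the stop codon, and no stem-loop was found in its annotated bases, whereas the other 3 have one. Of the 39 members with a coding annotation that were measured for the S ratio in both libraries, 12 held a hexamer. Their median ratio was 0.83 in fetal liver against 1.76 in bone marrow. In the other 27 none was found, with medians of 1.44 and 2.99. These include Hist1h1b, Hist1h2an, Hist1h3i, Hist1h2bn, Hist1h2ak and Hist2h2bb (ENSMUSG00000105827), whose annotation ends at the stop codon, and Hist1h2af, with 1 base after it. For those a hexamer is unknown rather than absent, and they also count among the members with under 200 bases. None of the 27 had a negative ratio in either library. Of the 12 with one, 4 had a negative ratio in fetal liver and 3 in bone marrow, so most members with a hexamer were higher in S-high cells, among them Hist1h2ae (1.86 and 3.36). Of the 15 members with at least 200 annotated bases the medians were 0.92 and 1.83, with 4 and 3 negative ratios, and of the 24 with fewer 1.54 and 3.24. How much of this comes from capture by poly(A) priming was not tested.

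The regions before the genes were compared over windows of 250 bases before to 50 after the start (RefSeq, GRCm38.p6), of which 63 distinct ones belonged to 63 members, as Hist1h2be has a pair of starts and the Hist2h2bb identifiers share a window. Each motif was read on both strands and on its own. CCAAT stood in 54 of 63 (85.7%) against 37.4% of the 32851 windows of all genes. It stood in every H1, H2A, H2B and H3 window but in 3 of 12 H4 windows. TATAAA stood in 55.6% against 13.6% of all windows, and ATTTGCAT, the octamer, in 14 windows or 22.2% against 1.74%, 7 of them H2A and 7 H2B. Windows of neighbouring genes on opposite strands can overlap, as those of Hist1h2bk and Hist1h2ah or of Hist1h2bg and Hist1h2ae do. A single match is then counted for both genes, so the windows are not independent and the 7 and 7 are not all separate sites. The linker genes Hist1h1b and Hist1h1c, whose S ratios were positive and negative in both libraries, are shown with an octamer-bearing H2B gene and the main H4 gene, each as the 100 bases before the start with the 3 motifs in capitals on either strand.
Hist1h1b, chr13:21780626-21780725, minus strand: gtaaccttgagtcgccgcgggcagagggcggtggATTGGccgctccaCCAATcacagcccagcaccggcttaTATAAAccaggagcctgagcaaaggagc
Hist1h1c, chr13:23738707-23738806, plus strand: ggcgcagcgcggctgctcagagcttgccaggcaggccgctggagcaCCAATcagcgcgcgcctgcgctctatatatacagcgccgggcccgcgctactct
Hist1h2bk, chr13:22035721-22035820, plus strand: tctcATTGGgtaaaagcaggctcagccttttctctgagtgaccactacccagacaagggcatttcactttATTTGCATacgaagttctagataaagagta
Hist1h4i, chr13:22041363-22041462, minus strand: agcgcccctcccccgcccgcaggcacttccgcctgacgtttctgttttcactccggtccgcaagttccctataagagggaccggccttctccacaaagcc

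Hist1h1b thus has CCAAT on both strands and TATAAA within 100 bases of its start, Hist1h1c a single CCAAT and no TATAAA in those letters, and the printed stretch of Hist1h4i none of the 3. These are matches of letters and say nothing of binding.

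Genes that serve the supply of histones were taken from a list of 25, among them chaperones, processing factors and regulators of histone transcription. Of 22 with at least 10 CPM, 5 passed 2-fold towards fetal liver (7.25% of all genes), 0 towards bone marrow (10.9%), and their median log2 ratio was 0.66. The largest were the chaperone gene Asf1b at 82.9 and 20.5 CPM (2.02), Ccne1, the cyclin E1 gene, at 16.2 and 4.34 CPM (1.90), Chaf1a, a subunit of chromatin assembly factor 1, at 20.4 and 7.01 CPM (1.54), and the histone chaperone gene Nasp at 148 and 60.5 CPM (1.29). Slbp stood at 228 and 134 CPM (0.77), Casp8ap2 at 36.4 and 26.1 CPM (0.48), and Npat, the activator of histone gene transcription, at 7.66 and 7.41 CPM (0.05), below the minimum.

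By S state many supply genes were likewise higher in S-high cells. In fetal liver 9 of 22 and in bone marrow 16 of 23 measured were at least 2-fold higher in S-high cells, where 3.41% and 10.5% of all genes were, with medians of 0.77 and 1.31. Slbp stood at 142 CPM in S-low and 355 CPM in S-high cells of fetal liver (1.33) and at 83.7 and 420 CPM in bone marrow (2.33). The list as a whole stood at 2354.5 CPM in S-high cells of fetal liver and 2424 CPM in those of bone marrow. Asf1b stood there at 142 and 88.5 CPM and Nasp at 211 and 194 CPM, both named after their values were seen.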

How the data were processed

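The authors deposited 1 matrix of UMI counts per library, with raw counts per gene and cell and no normalization. Per the file headers, the writing program was version 3.0.1 and the format version 2, and per the submitters' processing notes Seurat 4.0 and the mm10 build were used. Aligner, annotation release and counting strand were not given in the sources used here, and no length correction applies to 3' counts. Cells with at least 500 genes and at most 10% mitochondrial UMIs were kept, and doublets were not removed. A level is a summed count per 1000000 UMIs (CPM). Ratios are log2 CPM ratios with exact conditional 95% intervals, and genes under 10 CPM in both groups were left out. The intervals were checked on simulated counts that held counting error alone. That check cannot show how they hold under spread between cells or animals. Cells were thinned to 2000 UMIs for the S state, whose CPM values use all UMIs of those cells. Intervals and the limit of 3 counts cover counting error only. All members of 10 CPM or more in the higher library are named, and of these the 3 largest and 3 smallest ratios in each comparison are given with their counts. For the supply and variant lists the 4 largest ratios are named, and Slbp, Npat and Casp8ap2 always. The members and all gene lists were chosen with earlier results of these data known. Identifiers were matched to GENCODE M21 and symbols to RefSeq GRCm38.p6. Software was R 4.3.3 with edgeR 4.0.16 for the TMM (trimmed mean of M-values) factor, python 3.11.15, numpy 2.4.6 and scipy 1.17.1.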

Additional observations from a re-analysis of the deposited data

How the results depend on the processing

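No paired analysis was possible because there was 1 library per tissue. The log2 ratio of all histone transcripts (0.29) was 0.42 with a TMM factor, 0.45 with a median-ratio factor, 0.59 with each cell weighing the same, 0.15 in cells with at least 1000 genes, 0.64 without the 6% of cells with most UMIs, 0.17 without Hist1h2ae and 0.43 in thinned cells. The class ratios with a TMM factor were 0.62 for H1, 0.45 for H2A, 0.42 for H2B, 0.28 for H3 and 0.18 for H4. With each cell weighing the same they were 0.54, 0.75, 0.58, 0.48 and 0.21. Without the top gene they were -0.040 for H1, -0.039 for H2A, 0.36 for H2B and -0.55 for H4. The count of members past 2-fold towards fetal liver (3) was 5 with the median-ratio factor, 12 with each cell weighing the same and 11 without the deepest cells. For bone marrow (5) it was 3 with the median-ratio factor, 2 without the deepest cells, 8 with no minimum and a pseudocount of 1 CPM and 0 at a minimum of 50 CPM.

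The S-high over S-low ratio in fetal liver (1.29) was 1.78 with limits of 15 and 2, 0.83 with limits of 6 and 5, 1.02 at 1000 UMIs, 0.90 with 8 core genes, 1.56 with equal cell weight, 1.39 without the deepest cells and 1.11 without Hist1h2ae. In bone marrow (2.41) it was 2.52, 1.97, 2.30, 2.18, 2.64, 2.61 and 2.20 in that order. The ratio of the tissues in S-high cells (-0.78) was -0.45, -0.72, -0.82 with core genes, -0.85 without the deepest cells and -0.84 without Hist1h2ae. In S-low cells (0.35) it was 0.29, 0.43, 0.47, 0.45, 0.28 with equal weight, 0.37 and 0.25. Settings chosen after seeing the data were cells of 2000 to 6000 UMIs, with 2.49, 2.77, -0.59 and -0.31 for these 4 ratios, G2M-low cells, with 1.69, 2.15, -0.43 and 0.024, and resting cells, with -0.28 in place of S-low. Leaving out cells past the 0.5% cut for other-lineage markers was also added for these 4 ratios and moved none beyond its interval. The causes were not tested. With 1 library per tissue, the spread between animals is unknown, and the 2.70-fold depth gap cannot be told apart from tissue.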

Other observations

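Histone variants are made outside S phase as well, and their mRNAs mostly carry poly(A) tails. Of 10 measured from a list of 11, 2 passed 2-fold towards fetal liver (7.25% of all genes) and 0 towards bone marrow (10.9%). Cenpa, the centromeric H3 variant, stood at 226 CPM in fetal liver against 72.2 CPM in bone marrow (log2 ratio 1.65), H2afx, the H2A.X variant, at 235 and 93.6 CPM (1.33), and the linker variant gene H1f0 at 107 and 60.1 CPM (0.83). H3f3b, an H3.3 gene, was higher in bone marrow, at 3992 and 6794 CPM (-0.77). The list summed to 11828 and 12897 CPM, far above the 2731 and 2238 CPM counted for the replication-dependent genes. Since the library primes on poly(A), which most of the latter lack, these sums do not compare the amounts of mRNA in the cells. Between S-high and S-low cells, Cenpa had log2 ratios of -1.47 in fetal liver against -0.64 in bone marrow, H1f0 of -0.59 and -0.68, and H2afx of 0.07 and 2.44.

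Replication-dependent histone UMIs were concentrated in few cells, more so in bone marrow. At least 1 such UMI was found in 95.8% of cells from fetal liver and 84.7% of those from bone marrow, before any thinning. The 10% of cells with most held 42.0% of these UMIs in fetal liver against 67.8% in bone marrow, and the top cell held 318 and 294. Depth per cell differs between the libraries, and its part in these shares was not tested.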
